A study of Mus musculus with 12 samples.

Results

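Id1, Id3, Id4, Hes1, Hes5 and Notch2 were followed across 3 sorted cell populations of the adult mouse dentate gyrus. These 6 genes were taken by name as outputs of bone morphogenetic protein (BMP) and Notch signalling that are associated with stem cell quiescence, plus 1 receptor. All 6 were among the 10749 genes listed in the deposited table, had reads in all 12 libraries and passed the filter on low values, which left 8361 genes for testing. Cells came from the dentate gyrus of 8-week-old LPA1-GFP reporter mice, which carry the transgene Tg(Lpar1-EGFP) on an FVB/N and Swiss Webster background that was rederived into C57BL/6. Green fluorescence therefore reports activity of the Lpar1 transgene, the lysophosphatidic acid receptor gene, and not the receptor protein itself. Cells were sorted from fresh tissue by fluorescence and by the surface proteins EGFR, which binds epidermal growth factor, and Prominin-1, a cholesterol-binding membrane protein. The stem population carried all of LPA1-GFP, EGFR and Prominin-1. The progenitor population was LPA1-GFP positive but lacked EGFR, Prominin-1 or both. The niche population was LPA1-GFP negative. Each population had 4 libraries, made from the amplified RNA of 1000 cells, and all mice carried the reporter and received no treatment that the labels name. Whether a replicate stands for 1 animal or pooled animals is not stated in the labels, so the p-values reflect only how these libraries vary, part of which may be technical.

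Notch receptors are cleaved when a ligand on a neighbouring cell binds them, and the released intracellular part joins the DNA-binding protein RBPJ to switch on target genes, among them Hes1 and Hes5. HES proteins repress proneural genes. BMP ligands act through receptor kinases and SMAD proteins, for which the Id genes are classical targets, and ID proteins bind E proteins and so keep proneural partners off DNA. In the adult mouse hippocampus both pathways are known to hold neural stem cells in quiescence, and ID4 and NOTCH2 have been linked to that state in the mouse brain.

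Depth was 7597256 to 22854036 reads per library, and 8037 to 9700 genes were above 0. Levels below are reads per library total and per kilobase of exon (RPKM), scaled between libraries by the trimmed mean of M-values (TMM), and are given as mean ± SD with n = 4 libraries. Niche replicate 1 stood apart: alpha-globin genes took 33.0% of its reads, against 10.9%, 2.62% and 6.81% in niche replicates 2 to 4, at most 0.186% in stem and at most 0.228% in progenitor libraries. Progenitor replicate 1 stood apart from its group in 3 of the 6 genes, as given below. Stem replicate 2 stood apart in macrophage and microglia markers, which summed to 9398 RPKM there and to 2373 to 3527 RPKM in the other stem libraries.

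Start-site regions are shown for Hes5, Id4 and Id3 because these regions differ in how many pathway motifs they hold. The sequences are RefSeq windows of GRCm38.p6 from 250 bases before to 50 bases after the annotated start, all on the plus strand, and 4 of the 6 genes matched the table. Capitals mark TGGGAA (or its reverse complement TTCCCA), the core sequence bound by RBPJ, and GGCGCC, a GC-rich sequence bound by BMP-responsive SMADs that reads the same on both strands. The windows lie at chr4:154960673-154960972 for Hes5, chr13:48260866-48261165 for Id4 and chr4:136143572-136143871 for Id3.
Hes5: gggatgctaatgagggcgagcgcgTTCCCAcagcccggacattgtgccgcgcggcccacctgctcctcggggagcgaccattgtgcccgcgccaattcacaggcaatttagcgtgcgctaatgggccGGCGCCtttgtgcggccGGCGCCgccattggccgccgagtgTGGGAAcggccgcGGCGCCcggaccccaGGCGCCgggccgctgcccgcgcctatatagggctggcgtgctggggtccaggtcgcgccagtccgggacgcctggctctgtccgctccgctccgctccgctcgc
Id4: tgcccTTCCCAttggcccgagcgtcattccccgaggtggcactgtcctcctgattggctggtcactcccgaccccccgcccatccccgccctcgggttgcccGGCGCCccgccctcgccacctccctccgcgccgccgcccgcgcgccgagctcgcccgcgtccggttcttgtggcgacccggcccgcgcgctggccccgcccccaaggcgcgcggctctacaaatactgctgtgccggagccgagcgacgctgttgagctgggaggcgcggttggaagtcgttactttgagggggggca
Id3: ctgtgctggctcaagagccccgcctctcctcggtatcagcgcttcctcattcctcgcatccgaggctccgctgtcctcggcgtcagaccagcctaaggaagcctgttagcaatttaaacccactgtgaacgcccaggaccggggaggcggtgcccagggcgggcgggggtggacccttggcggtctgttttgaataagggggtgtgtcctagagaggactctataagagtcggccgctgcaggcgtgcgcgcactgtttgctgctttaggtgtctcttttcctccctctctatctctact
The Hes5 window held 2 copies of TGGGAA and 4 of GGCGCC, while 3.79% of 32851 promoter windows of the same length held at least 2 of the first and 0.0548% at least 4 of the second. The Id4 window held 1 copy of each, and 25.6% and 11.9% of windows held at least 1. No copy of either was found in the Id3 window or in that of Notch2 at chr3:98013288-98013587. The Hes5 and Id4 windows were 72.7% and 73.3% GC, and the shares over all windows were not matched for GC content. The Id3 window begins inside the gene span given below, so no sequence before the start of that span was searched. The Id4 window ends before its gene span given below begins, so no sequence inside that span was searched. The 2 motifs do not share bases in these windows, and a match describes letters and not binding.

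Id3 and Id4 were lower in stem than in both other populations, Hes1 was lower in stem than in niche, and Notch2 was higher in progenitor than in niche. Id1 and Hes5 were not called in any comparison. In stem against progenitor libraries 2 of the 6 genes were called, both lower, beside 7.10% of all tested genes called and 3.40% called lower. In stem against niche libraries 3 were called, all lower, beside 21.6% called and 10.7% called lower. In progenitor against niche libraries 1 was called higher and 1 lower, beside 11.5% called, 5.68% higher and 5.78% lower. The median log2 fold change of the 6 genes was -1.08 in stem against progenitor, -2.10 in stem against niche and -0.50 in progenitor against niche libraries, and that of all tested genes was -0.06, 0.09 and 0.15. Calls are adjusted p-values under 0.05 from limma over all tested genes, and fold changes are differences of log2(RPKM + 1) with their standard error (SE). These are bulk samples, in which fewer cells of a type and less RNA per cell cannot be told apart.

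**Figure D1:**
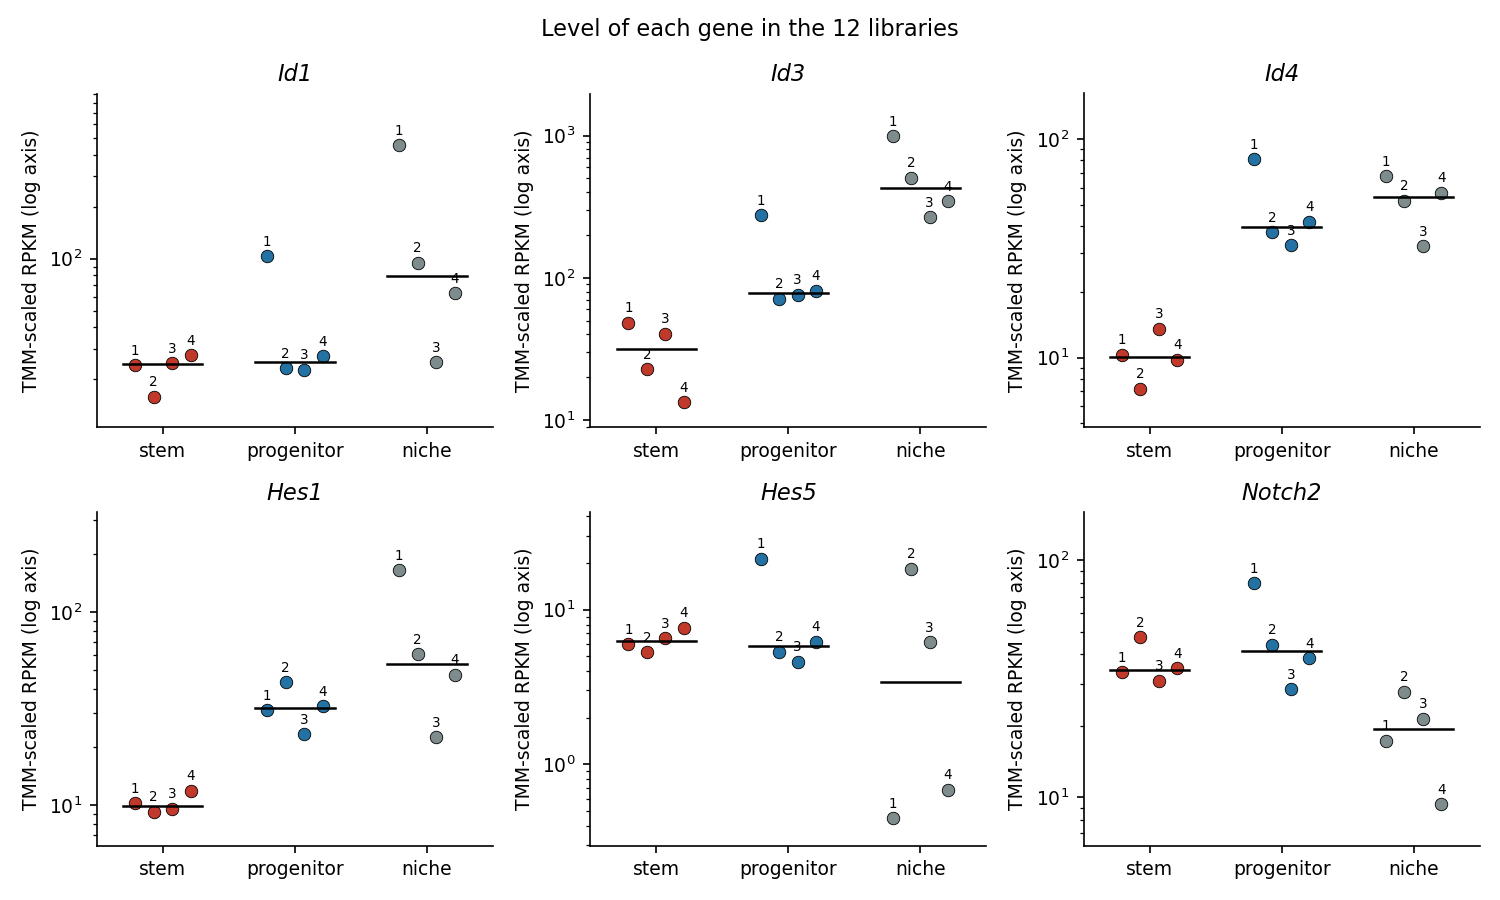
TMM-scaled RPKM of each gene on a log axis, 1 point per library labelled by its replicate number, with the group median as a line, for stem, progenitor and niche (n = 4 each). Stem libraries lie below all other libraries for Id3, Id4 and Hes1, whereas Hes5 spans 0.447 to 18.3 RPKM within niche.

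Among the BMP outputs, Id3 (ENSMUSG00000007872, GRCm38 chromosome 4, 136143497 to 136145755, plus strand) differed between all 3 populations. Its level was 48.2, 22.8, 40.6 and 13.4 RPKM in stem replicates 1 to 4, against 275, 71.4, 76.2 and 81.0 RPKM in progenitor and 989, 506, 267 and 346 RPKM in niche replicates. Every stem library was below every progenitor and niche library, and only progenitor replicate 1 overlapped niche, lying above niche replicate 3. The means were 31.2 ± 16.0 RPKM in stem, 126 ± 99.4 RPKM in progenitor and 527 ± 324 RPKM in niche libraries. The log2 fold change of stem against niche was -4.01 ± 0.51 (limma adjusted p = 4.64e-05). For progenitor against niche it was -2.13 ± 0.51 (limma adjusted p = 0.0137), and both calls held under each of 24 alternatives, 12 of which left out 1 library. The stem against progenitor difference of -1.87 ± 0.51 (limma adjusted p = 0.0355) was less firm. It no longer passed without stem replicate 2 (adjusted p = 0.112), stem replicate 4 (0.123), progenitor replicate 1 (0.121, log2 fold change -1.41), progenitor replicate 3 (0.0508) or progenitor replicate 4 (0.0514), and under 3 other settings.

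Id4 (ENSMUSG00000021379, chromosome 13, 48261228 to 48266026, plus strand) separated stem from both other populations but not those from each other. It stood at 10.3, 7.21, 13.6 and 9.78 RPKM in stem replicates, 81.0, 37.5, 32.7 and 41.9 RPKM in progenitor and 67.8, 52.3, 32.4 and 57.0 RPKM in niche replicates. All stem libraries lay below all the others, and the progenitor and niche libraries covered nearly the same range. The mean was 10.2 ± 2.61 RPKM in stem, 48.3 ± 22.1 RPKM in progenitor and 52.3 ± 14.8 RPKM in niche libraries. Stem differed from progenitor by a log2 fold change of -2.07 ± 0.38 (limma adjusted p = 0.00286) and from niche by -2.23 ± 0.38 (limma adjusted p = 0.000508). Both calls held under all 24 alternatives. For progenitor against niche the difference was -0.16 ± 0.38, with a 95% interval of -0.96 to 0.64, and its sign turned to 0.48 with library size as the scaling (limma adjusted p = 0.826, and 0.297 with library size alone). Unlisted antisense or intergenic genes overlap Id4 exons, and whether counting used strand is not given in the sources used here.

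Id1 (ENSMUSG00000042745, chromosome 2, 152736251 to 152737410, plus strand) was spread widely within progenitor and niche. Stem replicates gave 24.2, 15.9, 24.7 and 27.7 RPKM, progenitor replicates 103, 23.3, 22.8 and 27.3 RPKM and niche replicates 452, 94.8, 25.0 and 63.2 RPKM. Apart from progenitor replicate 1 the progenitor libraries lay within the stem range, and niche replicate 3 also did. Stem averaged 23.1 ± 5.08 RPKM, progenitor 44.1 ± 39.4 RPKM and niche 159 ± 198 RPKM. None of the comparisons was called: the log2 fold change was -1.96 ± 0.68 for stem against niche (limma adjusted p = 0.0517), -0.61 ± 0.68 for stem against progenitor (0.779) and -1.35 ± 0.68 for progenitor against niche (0.217). Their 95% intervals ran from -3.42 to -0.51, from -2.06 to 0.84 and from -2.81 to 0.10. For stem against niche the value varied with the niche library left out. It was -1.27 and not called without niche replicate 1 (limma adjusted p = 0.0769), and -2.65 and called without niche replicate 3 (0.00848). It was also called without progenitor replicate 1 (0.0360), with the replicate number as a block (0.0159) with the stricter filter (0.0384) and without niche replicate 1 and progenitor replicate 1 together (log2 fold change -1.27, adjusted p = 0.0194). Progenitor against niche was called without niche replicate 3 (log2 fold change -2.06, adjusted p = 0.0495) and was -0.68 without niche replicate 1 and -1.94 without progenitor replicate 1 (0.0844). Stem against progenitor was -0.094 without progenitor replicate 1.

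Among the Notch outputs, Hes1 (ENSMUSG00000022528, chromosome 16, 30064384 to 30067796, plus strand) was low and even in stem. It measured 10.2, 9.21, 9.57 and 11.8 RPKM in stem replicates, against 30.9, 43.2, 23.2 and 32.5 RPKM in progenitor and 165, 60.6, 22.4 and 47.2 RPKM in niche replicates. No stem library reached the lowest of the other 8. Group means were 10.2 ± 1.16 RPKM in stem, 32.5 ± 8.24 RPKM in progenitor and 73.9 ± 63.0 RPKM in niche libraries. The log2 fold change of stem against niche was -2.39 ± 0.48 (limma adjusted p = 0.00216), and that call held under all 24 alternatives. For stem against progenitor it was -1.55 ± 0.48, which missed the threshold (limma adjusted p = 0.0664) although the libraries did not overlap. It was called with library size as the scaling (0.0203), with only the 2 groups in the fit (0.00163) and without niche replicate 1 (0.00474) or niche replicate 3 (0.0314), and without niche replicate 1 and progenitor replicate 1 together (0.00955). Progenitor against niche gave -0.83 ± 0.48 (limma adjusted p = 0.281, 95% interval -1.85 to 0.18).

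Hes5 (ENSMUSG00000048001, chromosome 4, 154960923 to 154962371, plus strand), the other Notch target, gave no call in any comparison. Its level was 5.98, 5.29, 6.53 and 7.61 RPKM in stem replicates and 21.3, 5.35, 4.61 and 6.21 RPKM in progenitor replicates. Niche replicates split, with 0.447 and 0.684 RPKM in replicates 1 and 4, which rest on 3 and 6 reads, and 18.3 and 6.14 RPKM in replicates 2 and 3, which rest on 383 and 102 reads. The means of 6.35 ± 0.979 RPKM in stem, 9.37 ± 8.00 RPKM in progenitor and 6.40 ± 8.38 RPKM in niche libraries lay within that spread. The log2 fold change was -0.25 ± 0.73 for stem against progenitor (limma adjusted p = 0.935), 0.77 ± 0.73 for stem against niche (0.483) and 1.02 ± 0.73 for progenitor against niche (0.389). The 95% intervals ran from -1.80 to 1.30, from -0.78 to 2.32 and from -0.53 to 2.57, so changes of these sizes in either direction were not resolved. An unlisted gene on the minus strand overlaps Hes5 exons. Without progenitor replicate 1 the stem against progenitor value turned to 0.21.

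Among the 6 genes the receptor Notch2 (ENSMUSG00000027878, chromosome 3, 98013527 to 98150361, plus strand) was the one with a higher level in both LPA1-GFP positive populations than in niche in every library. Stem replicates had 33.6, 47.3, 31.0 and 35.0 RPKM, progenitor replicates 80.1, 44.0, 28.5 and 38.7 RPKM and niche replicates 17.3, 27.8, 21.4 and 9.32 RPKM. Every LPA1-GFP positive library was above every niche library, while stem and progenitor libraries overlapped. It averaged 36.7 ± 7.25 RPKM in stem, 47.8 ± 22.5 RPKM in progenitor and 18.9 ± 7.74 RPKM in niche libraries. Progenitor exceeded niche by a log2 fold change of 1.28 ± 0.40 (limma adjusted p = 0.0486), a call that lay at the threshold and was kept under 5 of 24 alternatives. With the replicate number as a block the adjusted p was 0.0515. Leaving out 1 library at a time gave 0.90 to 1.49 with adjusted p-values of 0.0406 to 0.146, and the call was kept only without niche replicate 1 or niche replicate 2. Stem against niche was 0.996 ± 0.40 (limma adjusted p = 0.0863), called only with library size as the scaling (log2 fold change 1.65, adjusted p = 0.00578). Stem against progenitor was -0.29 ± 0.40 (limma adjusted p = 0.839, 95% interval -1.13 to 0.56), and -0.0014 without progenitor replicate 1. An unlisted gene on the same strand overlaps Notch2 exons.

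Across the set 3 of the 6 genes had every stem library below every progenitor library, beside 13.2% of tested genes. The same 3, Id3, Id4 and Hes1, had every stem library below every niche library, beside 10.4%. Notch2 alone had every stem library above every niche library, beside 12.3%, and every progenitor library above every niche library, beside 8.79%. None of the 6 had every stem library above every progenitor library, beside 11.5%, or every progenitor library below every niche library, beside 6.82%.

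**Figure D2:**
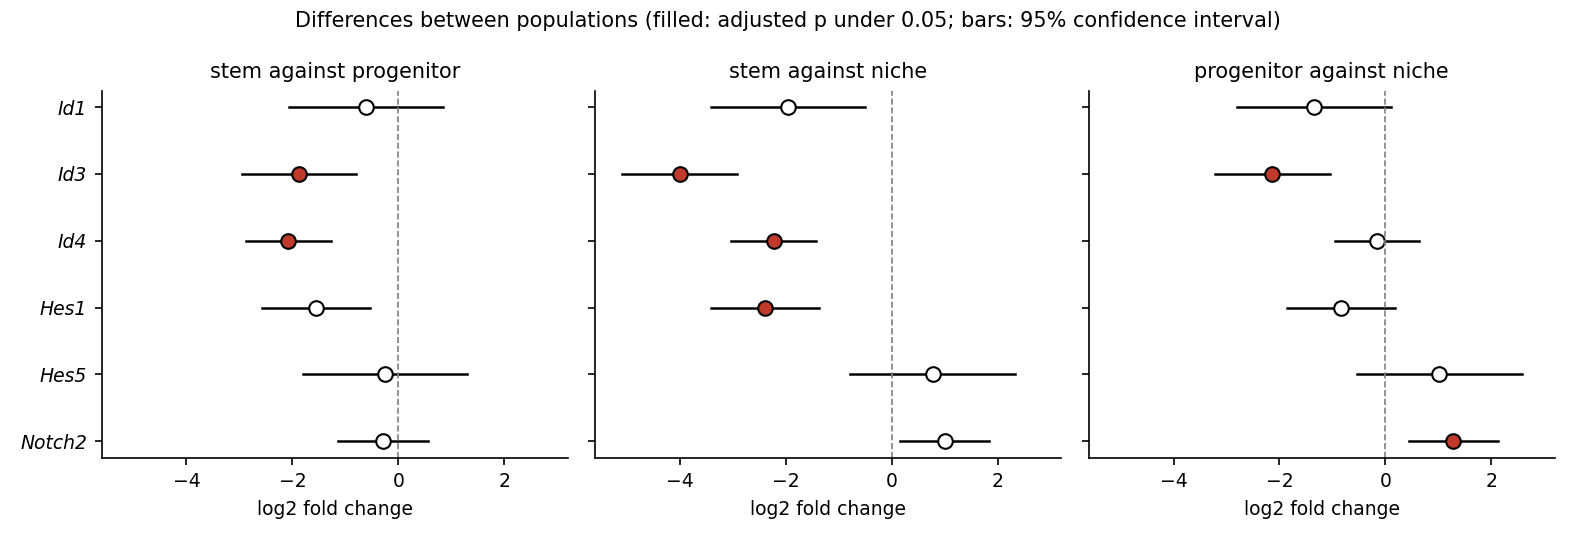
Log2 fold change of each gene with its 95% interval for stem against progenitor, stem against niche and progenitor against niche, where filled points have a limma adjusted p under 0.05. Id3, Id4 and Hes1 lie left of 0 in stem against niche, Hes5 intervals cross 0 in each comparison, and Notch2 lies right of 0 against niche.

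Ratios of 2 genes within a library need no scaling between libraries, and the pair Id3 over Notch2 was chosen after its values were seen, so it has no test. The RPKM of Id3 over that of Notch2 was 1.44, 0.482, 1.31 and 0.382 in stem replicates, 3.43, 1.62, 2.67 and 2.10 in progenitor replicates and 57.3, 18.2, 12.5 and 37.1 in niche replicates. The groups did not overlap and stood in the order stem, progenitor, niche. Id4 over Notch2 was 0.152 to 0.437 in stem libraries, 0.853 to 1.15 in progenitor libraries and 1.51 to 6.11 in niche libraries. Hes1 over Notch2 was 0.195 to 0.338 in stem libraries, 0.386 to 0.982 in progenitor libraries and 1.05 to 9.58 in niche libraries. Id1 over Notch2 did not separate the groups, at 0.335 to 0.797 in stem libraries, 0.529 to 1.29 in progenitor libraries and 1.17 to 26.2 in niche libraries. These ratios share the same denominator and show unequal differences, not which of the paired genes differed.

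**Figure D3:**
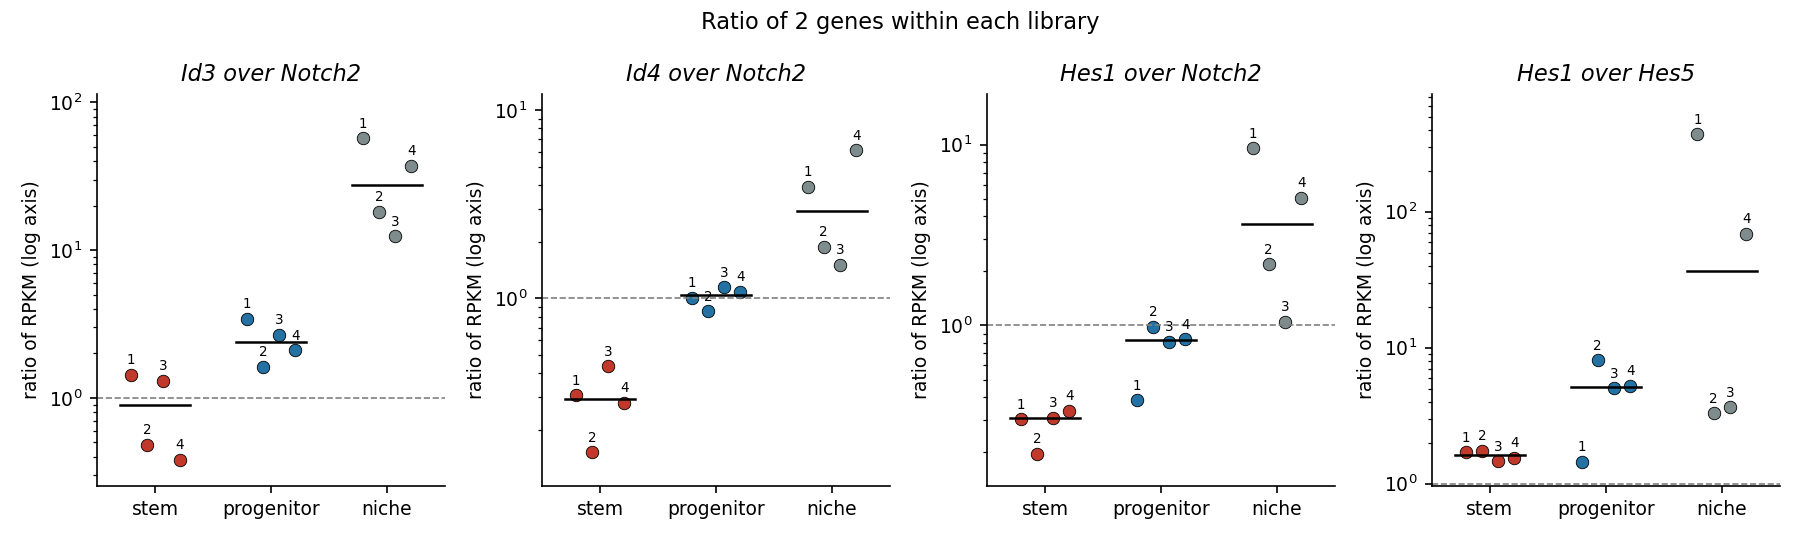
Within-library ratios of RPKM on log axes, 1 point per library labelled by its replicate number, with the group median as a line. For Id3 over Notch2 the stem libraries lie at 0.382 to 1.44, the progenitor libraries at 1.62 to 3.43 and the niche libraries at 12.5 to 57.3.

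Other genes of the Notch pathway were called in both directions, and in stem against niche at a share close to that of all tested genes. The table held 28 of 69 listed Notch genes, and 23 tested genes remained without the 6. Of these, 1 was higher and 1 lower in stem against progenitor, 5 were higher in stem against niche, and 2 were higher and 2 lower in progenitor against niche libraries. These are 8.70%, 21.7% and 17.4% of the 23, beside 7.10%, 21.6% and 11.5% of all tested genes. Without niche replicate 1 and progenitor replicate 1 the stem against niche calls were no longer one-sided, with 4 higher and 5 lower. That setting gave 3 higher and 1 lower in stem against progenitor and 2 higher and 5 lower in progenitor against niche. Rbpj, the DNA-binding partner of the cleaved receptor, had 53.6, 78.6, 34.2 and 36.7 RPKM in stem replicates and 5.29, 16.5, 9.55 and 6.38 RPKM in niche replicates, with no overlap. Its log2 fold change was 2.35 ± 0.46 (limma adjusted p = 0.00191), and the call held with any 1 library left out. The highest Rbpj value was in stem replicate 2, the library highest in macrophage and microglia markers, whose part in this result was not tested. The ligand Dll4 averaged 6.18 ± 1.40 RPKM in stem, against 1.28 ± 0.893 RPKM in progenitor and 0.707 ± 0.965 RPKM in niche libraries. It was higher in stem by 1.74 ± 0.48 against progenitor (limma adjusted p = 0.0378, lost without any 1 of the stem or progenitor libraries, at up to 0.116) and by 2.20 ± 0.48 against niche (0.00398, kept with any 1 library left out). Pofut1, which adds fucose to Notch receptors, was higher than in niche by 1.72 ± 0.40 in stem (limma adjusted p = 0.00634) and by 1.46 ± 0.40 in progenitor libraries (0.0274, lost without progenitor replicate 2, 3 or 4 or niche replicate 2, at up to 0.0932).

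The ubiquitin ligase genes of the pathway gave less firm values. Neurl1b was higher in stem than in niche by 2.48 ± 0.74 (limma adjusted p = 0.0261, lost without any 1 stem library or niche replicate 1 or 3, at up to 0.0858). Neurl1a was lower in progenitor than in niche by a log2 fold change of -2.58 ± 0.73 (limma adjusted p = 0.0323, lost without any 1 progenitor library or niche replicate 2, 3 or 4, at up to 0.0881). Dtx2 at 1.46 ± 0.44 and Fbxw7, which marks cleaved Notch for breakdown, at -1.26 ± 0.39 were called in progenitor against niche (limma adjusted p = 0.0420 and 0.0490) and kept in 1 and 2 of 12 cases with 1 library left out, at up to 0.0791 and 0.123. Dtx2 was also higher in stem than in niche, by 1.39 (limma adjusted p = 0.0338, kept in 7 of 12 such cases). Among other targets, Heyl had 1.10, 1.41, 0.0622 and 0.0475 RPKM in stem replicates, against 8.89, 5.43, 7.62 and 4.31 RPKM in progenitor replicates. That gave -2.25 ± 0.63 (limma adjusted p = 0.0417, lost without any 1 stem or progenitor library or niche replicate 4, at up to 0.128). Nrarp, a Notch target that dampens the pathway, was not called, at -0.37 ± 0.59 in stem against progenitor, 0.21 ± 0.59 in stem against niche and 0.59 ± 0.59 in progenitor against niche (limma adjusted p = 0.865, 0.836 and 0.565). The receptor Notch4 was listed at 0 to 2.49 RPKM and not tested, and Id2, Hes6, Hes7, Hey1, Hey2, Notch1 and Notch3 were not analysed here.

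In the BMP pathway a ligand was higher in stem while an inhibitory SMAD was lower. The table held 25 of 61 listed genes, and 21 tested genes remained without the 6. Of these, 1 was higher and 1 lower in stem against progenitor, 3 higher and 6 lower in stem against niche, and 1 higher and 3 lower in progenitor against niche libraries. These are 9.52%, 42.9% and 19.0% of the 21, beside the same 7.10%, 21.6% and 11.5%. Without niche replicate 1 and progenitor replicate 1 the progenitor against niche calls numbered 2 higher and 7 lower. Bmp2, a BMP ligand, had 11.9, 41.4, 13.1 and 4.91 RPKM in stem replicates, 1.24, 1.69, 0.985 and 1.42 RPKM in progenitor and 0.417, 0.161, 0.0674 and 1.60 RPKM in niche replicates. Every stem library was above every other library. The log2 fold change was 2.66 ± 0.55 against progenitor (limma adjusted p = 0.00696) and 3.32 ± 0.55 against niche (0.000460), and both calls were kept in all 12 cases with 1 library left out. Among stem libraries Bmp2 was highest in replicate 2 and lowest in replicate 4, as was the sum of macrophage and microglia markers, whose part in this result was not tested.

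Smad7, an inhibitory SMAD that is itself induced by the pathway, had 1.28, 0.367, 0.655 and 0.0317 RPKM in stem replicates, 10.2, 2.98, 5.90 and 2.61 RPKM in progenitor and 7.73, 8.77, 11.9 and 18.7 RPKM in niche replicates. It was lower in stem by a log2 fold change of -1.93 ± 0.50 against progenitor (limma adjusted p = 0.0255, lost without stem replicate 2, 3 or 4 or progenitor replicate 1 or 3, at up to 0.0979) and -3.00 ± 0.50 against niche (0.000430, kept with any 1 library left out). Stem libraries thus lay below all others for Smad7 as they did for Id3 and Id4. The secreted antagonist Sostdc1 was lower than in niche by -3.51 ± 0.71 in stem (limma adjusted p = 0.00217) and by -3.43 ± 0.71 in progenitor libraries (0.00488). Eng, a co-receptor prominent in endothelial cells, was lower than in niche by -2.23 ± 0.58 in stem (limma adjusted p = 0.0120) and by -2.43 ± 0.58 in progenitor libraries (0.0131, lost with only the 2 groups in the fit). Skil, a SMAD co-repressor, was lower than in niche by -1.96 in stem (limma adjusted p = 0.00144) and by -1.74 ± 0.37 in progenitor libraries (0.00650). Bmper, a secreted BMP-binding protein, was higher than in niche by 2.33 ± 0.57 in progenitor libraries (limma adjusted p = 0.0156, lost at 0.0558 without progenitor replicate 4). In stem libraries Bmper was higher than in niche by 1.80 (limma adjusted p = 0.0344, kept in 5 of 12 cases with 1 library left out).

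**Figure D4:**
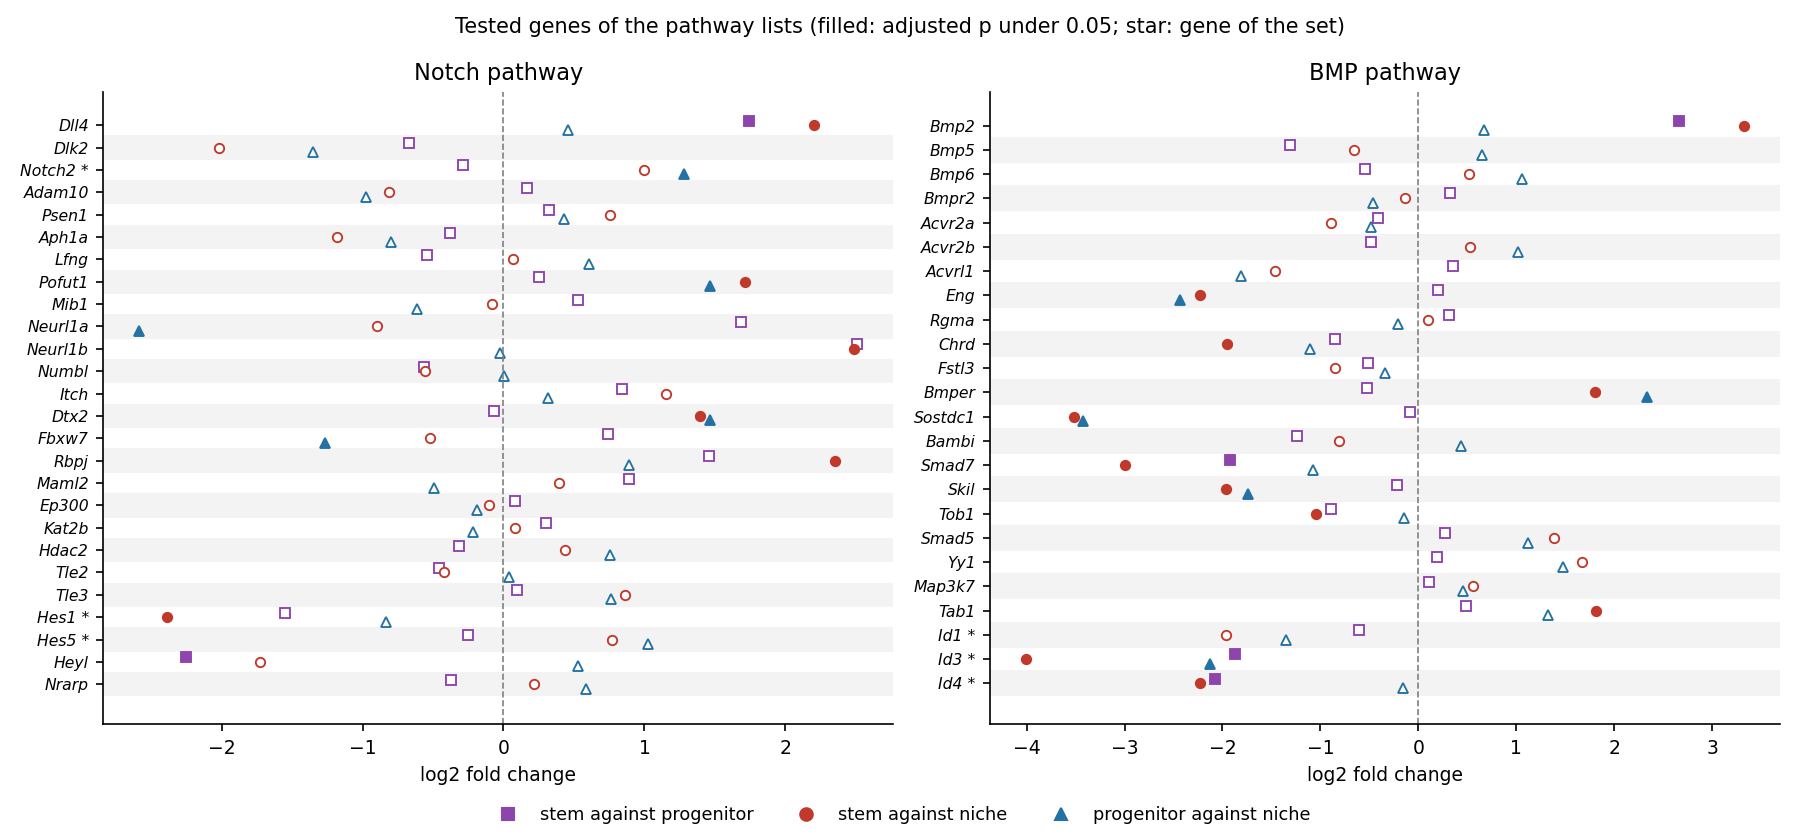
Log2 fold changes of tested genes of the Notch and BMP lists in the 3 comparisons. Genes of each list lie on both sides of 0.

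ID and HES proteins act on other basic helix-loop-helix (bHLH) factors, of which the table held 6 of 21 listed genes. In stem against progenitor libraries 1 was lower, in stem against niche libraries 2 were higher and 2 lower, and in progenitor against niche libraries 2 were higher and 3 lower. These are 16.7%, 66.7% and 83.3% of the 6, beside 7.10%, 21.6% and 11.5% of all tested genes. Without niche replicate 1 and progenitor replicate 1 the stem against progenitor calls became 1 higher and 2 lower. Neurog2, a proneural factor that HES proteins repress, averaged 10.3 ± 1.90 RPKM in stem, 10.7 ± 2.44 RPKM in progenitor and 0.231 ± 0.137 RPKM in niche libraries. It was higher than in niche by 3.18 ± 0.40 in stem (limma adjusted p = 3.91e-05) and 3.23 ± 0.40 in progenitor libraries (7.23e-05). Tcf4, an E protein that ID proteins can bind, was higher than in niche by 2.11 ± 0.40 in stem (limma adjusted p = 0.00139) and 2.24 ± 0.40 in progenitor libraries (0.00166). Nhlh2, a neuronal bHLH factor, was lower in stem than in progenitor by -2.56 ± 0.56 (limma adjusted p = 0.00932). Bhlhe40, a bHLH repressor, was lower in stem than in niche by -3.25 ± 0.59 (limma adjusted p = 0.000945) and lower in progenitor than in niche by -2.06 ± 0.59 (0.0325, lost without progenitor replicate 3 or niche replicate 2, 3 or 4, at up to 0.0825). The glial factor Olig1 was lower than in niche by -1.67 ± 0.44 in stem (limma adjusted p = 0.0128, lost with library size as the scaling) and by -2.06 ± 0.44 in progenitor libraries (0.00584).

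Genes of division and of quiescence were set beside the 6 genes. Of 17 tested cell cycle genes, from a list of 40, 12 were higher in stem than in progenitor, all 17 higher in stem than in niche and 13 higher in progenitor than in niche libraries, and none was lower. These are 70.6%, 100% and 76.5% of the 17, beside 7.10%, 21.6% and 11.5% of all tested genes. The median log2 fold changes of the 17 were 1.65, 4.36 and 2.56. Plk1, a mitotic kinase, averaged 125 ± 42.5 RPKM in stem, 18.1 ± 5.76 RPKM in progenitor and 2.47 ± 1.76 RPKM in niche libraries, and was higher in stem by 2.70 ± 0.47 against progenitor (limma adjusted p = 0.00212). Rrm2, a ribonucleotide reductase subunit, was higher in stem by 2.02 ± 0.37 against progenitor and 5.32 ± 0.37 against niche (limma adjusted p = 0.00346 and 2.99e-07). The stem libraries, lowest in Id3, Id4 and Hes1, were the highest in summed cell cycle RPKM, at 1884 to 3016 in stem libraries, 882 to 1122 in progenitor libraries and 212 to 499 in niche libraries.

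Of 12 tested genes of a quiescent neural stem cell list of 24, 3 were lower in stem than in progenitor. In stem against niche libraries 1 was higher and 5 lower, and in progenitor against niche libraries 2 were higher and 2 lower. Aldoc and Clu, which astrocytes also express strongly, were lower in stem than in progenitor by -2.78 ± 0.27 and -2.71 ± 0.33 (limma adjusted p = 3.55e-05 and 0.000155), and Ntsr2 by -1.39 ± 0.31 (0.0109, lost with median-of-ratios scaling). Nfia, a gliogenic factor, was higher than in niche by 1.75 in stem (limma adjusted p = 0.000531) and by 1.91 ± 0.30 in progenitor libraries (0.000505). The 6 genes did not move as a group: in stem against niche, where cell cycle genes were higher, Id3, Id4 and Hes1 were lower, whereas in progenitor against niche, where cell cycle genes were also higher, Id3 was lower but Id4 and Hes1 were not called. Id1 and Hes5 gave no call, and Notch2 was called in progenitor against niche and in neither other comparison.

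**Figure D5:**
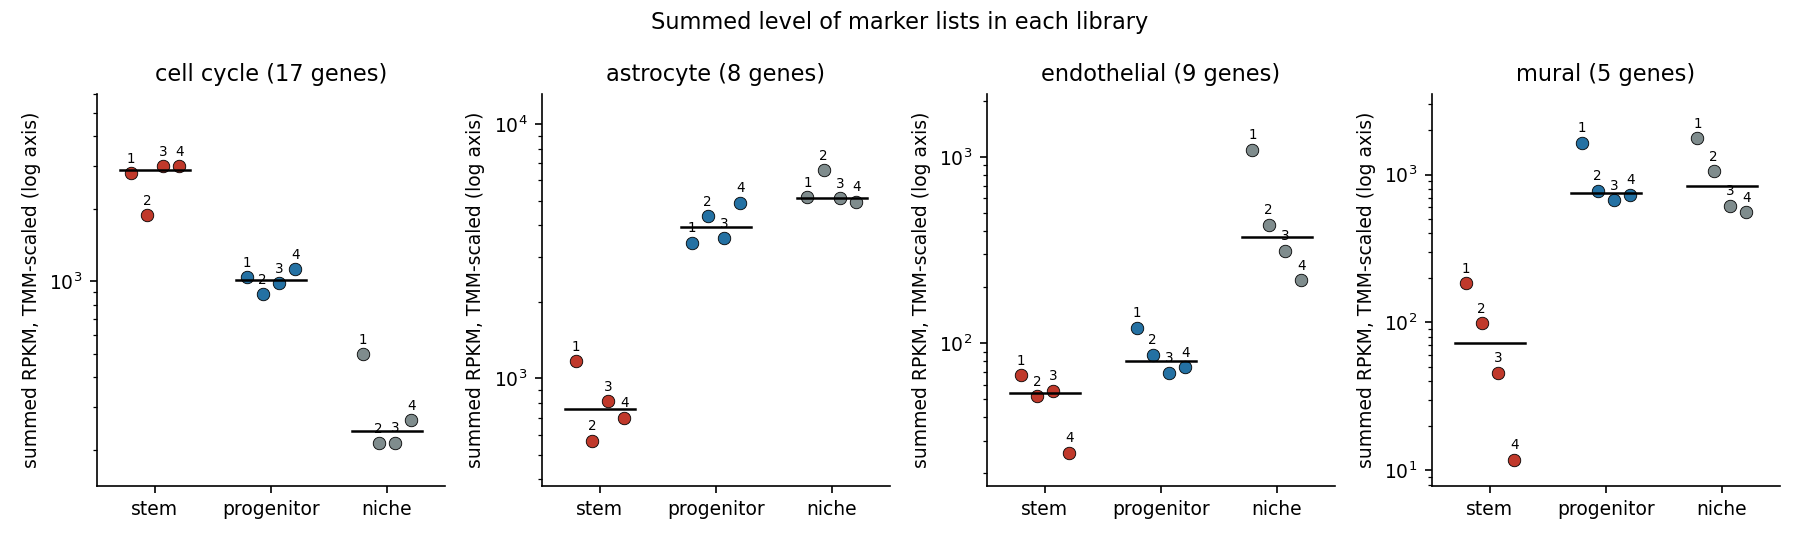
Summed TMM-scaled RPKM of cell cycle, astrocyte, endothelial and mural genes on log axes, 1 point per library with the group median as a line, for stem, progenitor and niche (n = 4 each). Stem libraries are highest in cell cycle genes and lowest in astrocyte, endothelial and mural genes, and niche replicate 1 is highest in endothelial genes, at 1095 RPKM.

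Markers of other cell types moved with the populations, and their part in the results on the 6 genes was not tested. Astrocyte markers, of which the table held 8 of 14, summed to 566 to 1164 RPKM in stem, 3414 to 4902 RPKM in progenitor and 4955 to 6592 RPKM in niche libraries. The order stem, progenitor, niche, in which the Id3 means also stood, held without overlap for Ttr and for the sums of astrocyte and of endothelial markers. The defining astrocyte markers Aldoc and S100b were above 0 in every library, but neither kept that order without overlap. Aldoc was 1427 to 1898 RPKM in progenitor and 1098 to 1682 RPKM in niche libraries. S100b was 8.67 to 19.1 RPKM in stem and 16.4 to 35.3 RPKM in progenitor libraries. Endothelial markers, 9 of 15, summed to 25.8 to 67.4 RPKM in stem, 69.6 to 121 RPKM in progenitor and 218 to 1095 RPKM in niche libraries. Slc2a1 made up 46.5%, 47.8% and 51.8% of these sums, and 0 of the 9 genes were called in stem against progenitor. Cldn5 overlapped between stem (0.0475 to 6.54 RPKM) and progenitor (1.30 to 23.8 RPKM). Tek overlapped between progenitor (1.05 to 3.80 RPKM) and niche (0.211 to 7.81 RPKM). After scaling, replicate 1 had the highest endothelial sum in each group. Niche replicate 1 was also the highest of the niche libraries for Id1 and Hes1, with and without TMM scaling. For Id3 and Id4 it was the highest with scaling only, at 413 and 28.3 RPKM on the deposited scale, against 255 to 415 RPKM and 31.0 to 49.7 RPKM in the other niche libraries. Mural markers, 5 of 11, summed to 11.8 to 185 RPKM in stem, 669 to 1643 RPKM in progenitor and 559 to 1769 RPKM in niche libraries, with replicate 1 highest in each group after scaling. Fibroblast and meningeal markers, 7 of 9, summed to 6.06 to 59.0 RPKM in stem, 104 to 259 RPKM in progenitor and 51.7 to 144 RPKM in niche libraries. Oligodendrocyte precursor markers, 6 of 10, summed to 83.4 to 140 RPKM in stem, 99.0 to 155 RPKM in progenitor and 169 to 352 RPKM in niche libraries. Macrophage and microglia markers, 7 of 16, summed to 2373 to 9398 RPKM in stem, 128 to 277 RPKM in progenitor and 3355 to 5794 RPKM in niche libraries. The defining markers of these lists, Cldn5, Tek, Rgs5, Pdgfrb, Col1a2, Col1a1, Pdgfra, Cspg4, Csf1r and Tyrobp, were above 0 in every library. Some were near 0 at their lowest. In stem libraries Cldn5 fell to 0.0475, Tek to 0.0740, Pdgfrb to 0.120 and Col1a1 to 0.153 RPKM. Values above 0 therefore do not show that each cell type was present in each library. Neuroblast markers, 4 of 10, summed to 54.1 to 103 RPKM in stem, 795 to 2125 RPKM in progenitor and 185 to 434 RPKM in niche libraries, and mature neuron markers, 6 of 10, to 16.7 to 26.6 RPKM in stem, 19.6 to 56.9 RPKM in progenitor and 124 to 691 RPKM in niche libraries. The choroid plexus gene Ttr was 13.1 to 69.2 RPKM in stem, 77.8 to 478 RPKM in progenitor and 4106 to 9369 RPKM in niche libraries. Ccdc153, the other defining marker of the ependyma and choroid plexus list, went the other way between progenitor and niche. It was 0 to 1.51 RPKM in stem, 5.19 to 22.5 RPKM in progenitor and 0 to 0.147 RPKM in niche libraries. Of the 5 tested genes of that list, 2 were higher and 2 lower in progenitor against niche, or 80.0%, beside 11.5% of all tested genes. Sox2, which marks neural stem cells, was 38.5 to 65.2 RPKM in stem, 35.3 to 51.0 RPKM in progenitor and 20.2 to 57.9 RPKM in niche libraries, and Nes was 1.47 to 3.71 RPKM in stem, 2.43 to 4.19 RPKM in progenitor and 0.0754 to 3.46 RPKM in niche libraries.

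The genes most like each of the 6 were found by Pearson correlation of log2 values over the same 12 libraries, which share their group structure and their scaling, so the values are descriptions. For Id3 they were Cd59a (r = 0.981), Igfbp2 (0.977) and Cxcl12 (0.971), and for Id4 Selenom (0.972), Ttyh1 (0.971) and Mt3 (0.970). Id1 was closest to Psmc3 (0.967), Ppp1cb (0.956) and Tsc22d1 (0.955), and Hes1 to Bpgm (0.958), Bnip3l-ps (0.955) and Ramp2 (0.955). Hes5 was closest to Col9a3 (0.958), Mvb12a (0.927) and Vaultrc5 (0.918), and Notch2 to Gm19807 (0.929), Zfp523 (0.911) and Trmt112-ps2 (0.899). Pseudogenes among these can share reads with their parent genes. None of the 6 was among the 3 genes most like another.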

How the data were processed

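The deposited table holds log2(RPKM + 1) values per gene, as read from the values, made by the authors from poly(A) RNA of sorted cells. The build is GRCm38 (mm10), per the submitters' processing notes. For aligner, counter and strand: not given in the sources used here. With the log undone, 100% of 106417 values above 0 were whole reads within 1e-05 reads. Exon lengths matched the annotation for 1192 genes and were found from the values for 9318. Symbols and positions came from GENCODE for GRCm38 (10589 identifiers).

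Groups followed the markers in the labels. The plan set limma for log2 RPKM values and a count test only for raw counts, so limma was run. Genes with at least 10 reads per median library in at least 4 libraries (CPM 0.767) and 15 reads in total were kept. RPKM was divided by TMM factors, a pseudocount of 1 RPKM was added (which understates fold changes of low genes), and limma 3.58.1 in R 4.3.3, with statmod 1.5.0, fitted 1 mean per group over 12 libraries with trend and robust spread. P-values were two-sided and adjusted by Benjamini-Hochberg. The procedure was tested on simulated data. Alternatives covered scaling, pseudocount, filter, model, groups in the fit, replicate block and libraries left out. The floor of 3 reads was 0.131 to 0.395 CPM, covering counting error only, since the reads carry no molecular identifiers.

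The 6 genes and all lists were chosen with earlier results of these data known. Named genes were the 6, up to 4 called genes with the largest fold change per pathway list and comparison, the 3 genes most like each of the 6, the first 2 markers of each cell type list in the table, and the Notch receptors and Id, Hes and Hey genes it holds. Nrarp was added because it is a Notch target. The results of 1 cell type list are not reported here.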

Additional observations from a re-analysis of the deposited data

Results flagged for a closer look

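A sample far from the others of its group was looked for in the 18 groups of 4 libraries formed by the 6 genes and 3 populations, by the gap to the nearest library as a share of the group's range (Dixon's test at the 95% level). Chance marks about 1 in 20 groups, and 4 of 18 were marked. Id1 was 103 RPKM in progenitor replicate 1, against 22.8 to 27.3 RPKM in the other progenitor libraries, a share of 0.944. Id3 was 275 RPKM in the same library, against 71.4 to 81.0 RPKM, a share of 0.953. Hes5 was 21.3 RPKM in it, against 4.61 to 6.21 RPKM, a share of 0.905. Id1 was 452 RPKM in niche replicate 1, against 25.0 to 94.8 RPKM in the other niche libraries, a share of 0.837 that passes only with TMM scaling, since on the deposited scale it was 0.674.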

How the results depend on the processing

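Of 432 values of the 6 genes under alternatives, 389 kept direction and side of the threshold, 27 lost a call, 12 gained one and 4 changed sign, none of them called. The cause of changes was not tested. Hes5 turned to 0.21 in stem against progenitor without progenitor replicate 1, and likewise to 0.21 without niche replicate 1 and progenitor replicate 1 together, which also turned Hes5 to -0.0036 in progenitor against niche. With 1 library left out, Hes5 ran between -0.466 and 0.207 in stem against progenitor and 0.436 and 1.698 in progenitor against niche. Id4 turned to 0.48 in progenitor against niche with library size alone. In stem against progenitor, 594 genes were called, 355 to 1093 with 1 library left out, 1418 with only the 2 groups fitted and 1116 without both replicate 1 libraries. Called members numbered 2, 1 to 3 with 1 library left out, and 1 with median-of-ratios scaling, voom or no trend. In stem against niche, 1806 genes were called, 1272 to 2490 with 1 library left out and 2999 without both replicate 1 libraries, with 3 to 4 members called. In progenitor against niche, 958 genes were called, 535 to 1640 with 1 library left out, 1839 with library size alone, 539 with only 2 groups and 1985 without both replicate 1 libraries. Members called were 2, 1 to 2 with 1 library left out, and 1 with median-of-ratios, TMM without alpha-globin and mitochondrial genes, a pseudocount of 0.1, no filter, the filter of 50 reads, no trend, the replicate block, only 2 groups, or without both replicate 1 libraries. Library size alone put the median over all genes at 0.58 in stem against niche and 0.62 in progenitor against niche, in place of 0.09 and 0.15, with splits of 2018 higher and 586 lower, and 1525 higher and 314 lower, in place of 910 and 896, and 475 and 483. The design text speaks of 4 replicates with 3 populations each but does not say what a replicate shared. Deviations of same-numbered libraries correlated at -0.127 to 0.207, with the own number best in 4 of 12 pairs, so the libraries were not taken as paired. Those values cannot exclude pairing, and between progenitor and niche they were all positive, at 0.03 to 0.207. The alpha-globin share fell from replicate 1 to 4 in stem (0.186%, 0.0532%, 0.0224%, 0.0200%) and progenitor (0.228%, 0.0918%, 0.0574%, 0.0523%), but not in niche. Alpha-globin genes, and after scaling mural and endothelial genes, were highest in replicate 1 of each group. With the replicate block 607, 1814 and 945 genes were called, of which 554, 1699 and 872 were shared with the fit without it, and 2, 4 and 1 members, with Id1 gained in stem against niche (0.0159) and Notch2 lost in progenitor against niche (0.0515). The SE of Id3 was 0.348 with it and 0.510 without. Hes5 in niche replicates 1 and 4 rests on 3 and 6 reads, or 0.247 and 0.790 CPM. In niche replicates 2 and 3 it was 19.9 and 7.78 CPM, and the cause of the split was not tested.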

Other observations

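Within-library ratios between relatives, given as descriptions with no test, differed in spread between populations. Hes1 over Hes5 in RPKM was 1.46 to 1.74 in stem libraries, 1.45 to 8.08 in progenitor libraries and 3.30 to 370 in niche libraries, and the niche values of 370 and 69.1 in replicates 1 and 4 rest on 3 and 6 reads of Hes5, while replicates 2 and 3 gave 3.30 and 3.65. Id3 over Id1 was 0.483 to 2.00 in stem libraries, 2.67 to 3.34 in progenitor libraries and 2.19 to 10.6 in niche libraries, with every stem library below every other library. Among tested genes, the mean level of Id3 stood at percentile 78.4 in stem, 92.1 in progenitor and 97.4 in niche libraries. The mean of Notch2 stood at percentile 80.6 in stem, 84.0 in progenitor and 67.1 in niche libraries, so by rank as well these genes stood in different orders.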
